A study of Mus musculus with 6 samples.

Results

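The genes described here encode 10 enzymes of serine, glycine and one-carbon metabolism, and were taken as the rows whose symbols are Phgdh, Psat1, Psph, Shmt1, Shmt2, Mthfd1, Mthfd2, Mthfd1l, Gldc and Gnmt. All 10 are among the 23224 rows of the table, and all 10 passed the filter on low counts and were tested among 13058 genes. The measurements are polyadenylated RNA from whole liver of untreated mice aged 35 weeks, in 3 mice with germline loss of PKM2 (PKM2 KO) and 3 wild-type mice (WT). Both genotypes share a mixed C57BL/6J x 129SvJ background, the mice of a genotype are independent animals, and the labels give no sex, litter or batch. PKM2 is one of the splice forms of the pyruvate kinase gene Pkm, and a germline loss affects every cell type that uses it. Levels are given as CPM, the reads of a gene relative to the TMM-scaled total of its library, and the values of 3 livers always run from replicate 1 to 3.

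In mammals serine is made from the glycolytic intermediate 3-phosphoglycerate by PHGDH, PSAT1 and PSPH in turn. Serine hydroxymethyltransferases then pass a carbon unit from serine to tetrahydrofolate and leave glycine, in the cytosol by SHMT1 and in mitochondria by SHMT2. The MTHFD enzymes move that unit between the oxidation states of folate that feed purine, thymidylate and methionine synthesis. In liver, glycine is broken down by the glycine cleavage system, of which GLDC is the decarboxylase, and is methylated by GNMT, which uses up S-adenosylmethionine. Pyruvate kinase acts downstream of 3-phosphoglycerate and serine activates PKM2, so the comparison asks whether the transcripts of these enzymes differ when PKM2 is absent.

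The libraries held 27727048 to 33756104 expected counts in PKM2 KO and 27795400 to 36125711 in WT. Hepatocyte markers were the highest of the marker lists in every liver. Summed over 10 genes, they reached between 111000 and 121000 CPM in PKM2 KO livers, against 75900 to 111000 CPM in WT livers, lowest in WT 2. Most of each sum was Alb, at 81800, 73800 and 82600 CPM in PKM2 KO livers, against 68800, 45600 and 77600 CPM in WT livers. Of the 10 hepatocyte markers, 7 had positive and 3 negative fold changes. Transcripts of pancreatic acinar cells stood out in WT 1 and WT 2. The 15 acinar markers summed to between 35.5 and 64.5 CPM in PKM2 KO livers, against 3470, 9970 and 34.8 CPM in WT livers 1 to 3, and none of the 15 was at 0 in any liver. Pkm, listed under its older symbol Pkm2 in a row that does not tell its splice forms apart, stood at 9.65, 6.31 and 6.9 CPM in PKM2 KO livers, against 15.9, 26.6 and 20.6 CPM in WT livers (log2 fold change -1.47, adjusted p = 0.314 in edgeR). The adjusted p of Pkm was 4.9e-06 with DESeq2 and 0.0472 in edgeR without WT replicate 1, both past the threshold. None of the 10 members lies on chromosome 9, which carries Pkm.

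The livers divided the 10 genes into 5 abundant and 5 scarce transcripts, in both genotypes alike. Gnmt, Shmt2, Mthfd1, Shmt1 and Gldc stood between the 93.2 and the 99.6 percentile of mean CPM among the tested genes, and Psph, Mthfd1l, Mthfd2, Phgdh and Psat1 between the 5.53 and the 28.7 percentile. No member passed the threshold between PKM2 KO and WT (0 of 10, adjusted p 0.658 to 0.983 in edgeR's quasi-likelihood test), where 0.023% of all tested genes did, 0.0153% higher and 0.00766% lower in PKM2 KO. The count was also 0 with DESeq2 and with limma voom, against 0.743% and 0.0383% of all genes. At an unadjusted p under 0.05 there was 1 member, Gldc, against 7.24% of all genes. Of the 10 fold changes 5 were positive and 5 negative, with a median log2 fold change of -0.0224 beside -0.0119 over all tested genes.

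**Figure D1:**
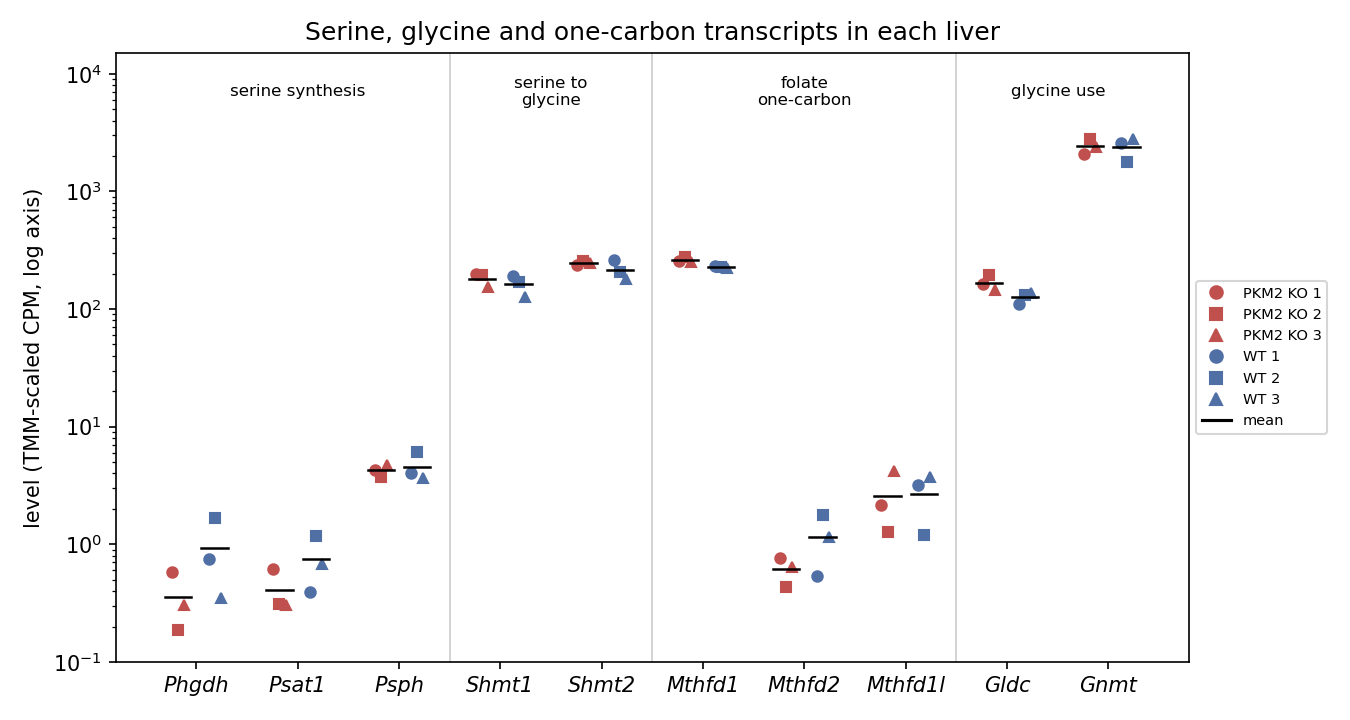
Level of each member in each liver, in TMM-scaled CPM on a log axis, with PKM2 KO livers in red on the left and WT livers in blue on the right of each gene, and black bars for the mean of 3 livers. The abundant members lie at 110 CPM or more in every liver, the scarce ones at 6.07 CPM or less, and Gldc and Mthfd1 have no overlap between genotypes.

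To compare levels between genes, CPM was divided by the length in kb of each gene's principal GENCODE transcript. On this scale Gnmt stood first, at a mean of 2320 CPM per kb over the 6 livers, 22.9-fold above Shmt2 at 101 CPM per kb. Mthfd1 followed at 75.2, Shmt1 at 60.2 and Gldc at 39 CPM per kb. These 4 neighbours overlapped in their ranges over livers, although each liver held them in this same order. A gap of 15.3-fold separated Gldc from Psph, at 2.54 CPM per kb, and Psph lay above Mthfd1l, at 0.713 CPM per kb, with no overlap. The lowest 4, Mthfd1l, Mthfd2 at 0.424, Phgdh at 0.34 and Psat1 at 0.222 CPM per kb, overlapped with their neighbours, and their order held in 5 of 6 livers for Mthfd1l above Mthfd2 and in 4 of 6 for each of the next steps. The transcript lengths come from a later build than the one used for counting, so small differences between genes on this scale are approximate.

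The starts of Phgdh, Psat1 and Mthfd2 are printed because these 3 scarce members had the most negative fold changes, and that of Shmt2 as an abundant partner for comparison. Each line is 250 bases before and 50 after the RefSeq gene start, build GRCm38.p6, on the minus strand, at chr3:98339920-98340219 for Phgdh, chr19:15925010-15925309 for the first of 2 Psat1 starts, chr6:83317555-83317854 for Mthfd2 and chr10:127522395-127522694 for Shmt2. Capitals mark matches to TGATGNA, a core of the element bound by ATF4, the transcription factor of the amino acid response, searched on both strands.
Phgdh: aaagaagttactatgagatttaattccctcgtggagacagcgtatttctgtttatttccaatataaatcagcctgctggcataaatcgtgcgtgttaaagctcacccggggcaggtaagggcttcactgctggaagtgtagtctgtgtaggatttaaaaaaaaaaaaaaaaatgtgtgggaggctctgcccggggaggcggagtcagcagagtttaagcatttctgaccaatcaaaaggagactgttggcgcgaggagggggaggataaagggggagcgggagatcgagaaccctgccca
Psat1: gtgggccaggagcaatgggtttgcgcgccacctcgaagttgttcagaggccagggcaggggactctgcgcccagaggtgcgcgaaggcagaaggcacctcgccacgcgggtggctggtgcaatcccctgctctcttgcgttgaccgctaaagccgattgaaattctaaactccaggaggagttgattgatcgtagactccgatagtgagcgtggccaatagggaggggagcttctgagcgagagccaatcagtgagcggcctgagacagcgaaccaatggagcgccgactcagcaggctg
Mthfd2: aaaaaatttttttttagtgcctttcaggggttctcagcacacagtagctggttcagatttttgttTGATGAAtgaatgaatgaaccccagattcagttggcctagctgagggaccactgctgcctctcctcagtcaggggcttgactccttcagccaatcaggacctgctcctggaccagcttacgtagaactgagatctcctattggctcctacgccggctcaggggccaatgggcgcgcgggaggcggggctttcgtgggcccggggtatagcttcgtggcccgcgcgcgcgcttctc
Shmt2: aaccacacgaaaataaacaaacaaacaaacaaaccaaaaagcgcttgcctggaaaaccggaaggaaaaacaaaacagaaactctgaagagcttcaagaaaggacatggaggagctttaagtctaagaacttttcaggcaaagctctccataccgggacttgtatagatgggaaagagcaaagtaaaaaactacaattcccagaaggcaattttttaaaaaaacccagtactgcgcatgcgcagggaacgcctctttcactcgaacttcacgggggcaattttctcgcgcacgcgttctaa
The ATF4 core matched in Mthfd2, 185 bases upstream of the start, and in no other of the 11 promoters of the 10 members, against 12.2% of all 32851 promoters. The E-box CACGTG, bound by MYC among other factors, matched in none of the 11, against 7.15% of all promoters. The TATA box motif TATAAA, also searched on both strands, matched in Phgdh, against 13.6% of all promoters. That match is not capitalised and lies nearer to the upstream end of the printed line than to the start. The members' starts held between 8 CG dinucleotides in Mthfd1l and 30 in the second start of Psat1, all above the median of 7 over all promoters. Gnmt and Phgdh, the most abundant and one of the scarcest members, both held 11. The GC content was 42.7% in Shmt2 and 66.7% in the second Psat1 start at the extremes, against a median of 52.7%.

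Among the serine synthesis enzymes, Phgdh and Psat1 were scarce and Psph was low, and none passed the test. Phgdh, the dehydrogenase that commits 3-phosphoglycerate to serine, stood at 0.586, 0.186 and 0.304 CPM in PKM2 KO livers, against 0.75, 1.68 and 0.352 CPM in WT livers. WT 2 was the highest liver, PKM2 KO 1 lay above WT 3, and the groups overlapped. The values rest on 17, 6 and 10 expected counts in PKM2 KO and 21, 54 and 13 in WT. An exact 95% Poisson interval, which covers counting error only, ran from 2.2 to 13.1 counts for PKM2 KO 2 and from 40.6 to 70.5 for WT 2. The means were 0.3586 ± 0.205 CPM in PKM2 KO, against 0.9276 ± 0.682 CPM in WT (SD, n = 3 each), a log2 fold change of -1.37 (SE 0.651, 95% interval -2.89 to 0.15, adjusted p = 0.724 in edgeR). With each liver left out, the log2 fold change ran from -1.89 without PKM2 KO replicate 1 to -0.60 without WT replicate 2. With WT 3 the sole WT liver it was 0.02.

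Psat1, the aminotransferase of the next step, stood at 0.62, 0.311 and 0.304 CPM in PKM2 KO livers, against 0.393, 1.18 and 0.676 CPM in WT livers. WT 2 was again the highest, PKM2 KO 1 lay between WT 1 and WT 3, and the groups overlapped. Its log2 fold change was -0.88 (SE 0.495, 95% interval -2.04 to 0.28, adjusted p = 0.762 in edgeR), on 10 to 18 expected counts in PKM2 KO and 11 to 38 in WT, and it ran from -1.28 without PKM2 KO replicate 1 to -0.40 without WT replicate 2. Psph, the phosphatase that releases serine, stood at 4.31, 3.73 and 4.71 CPM in PKM2 KO livers, against 4, 6.07 and 3.63 CPM in WT livers. Its log2 fold change was -0.10 (95% interval -0.64 to 0.43, adjusted p = 0.957 in edgeR). WT 2 held the highest value here too, and the other livers of both genotypes were interspersed. Without WT replicate 2 the log2 fold change of Psph was 0.16.

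WT 2, the liver highest for Phgdh, Psat1, Psph and Mthfd2, was also the liver highest for acinar markers, at the 9970 CPM given above, and for bile duct markers. The 6 bile duct markers summed to 5.41 to 6.12 CPM in PKM2 KO and 11.7, 18 and 9.55 CPM in WT livers 1 to 3. All 5 of 5 tested markers had negative fold changes, and none of the 6 was at 0 in any liver. Sox9, at 3.25, 4.89 and 6.17 CPM in WT livers 1 to 3, was the largest part of the sum in WT 3. Whether the bile duct markers of WT 1 and WT 2 came from bile ducts or from pancreatic tissue was not tested. Macrophage markers, 9 of 10 of them negative, summed to 321 to 366 CPM in PKM2 KO and 403 to 464 CPM in WT, with none of them at 0. The part of these cells in the values of the scarce members was not tested. In whole tissue, fewer cells of a type and less RNA per cell cannot be told apart. WT 1, with 3470 CPM of acinar markers, was in the middle of the WT livers for Phgdh and lowest of them for Psat1 and Mthfd2.

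**Figure D2:**
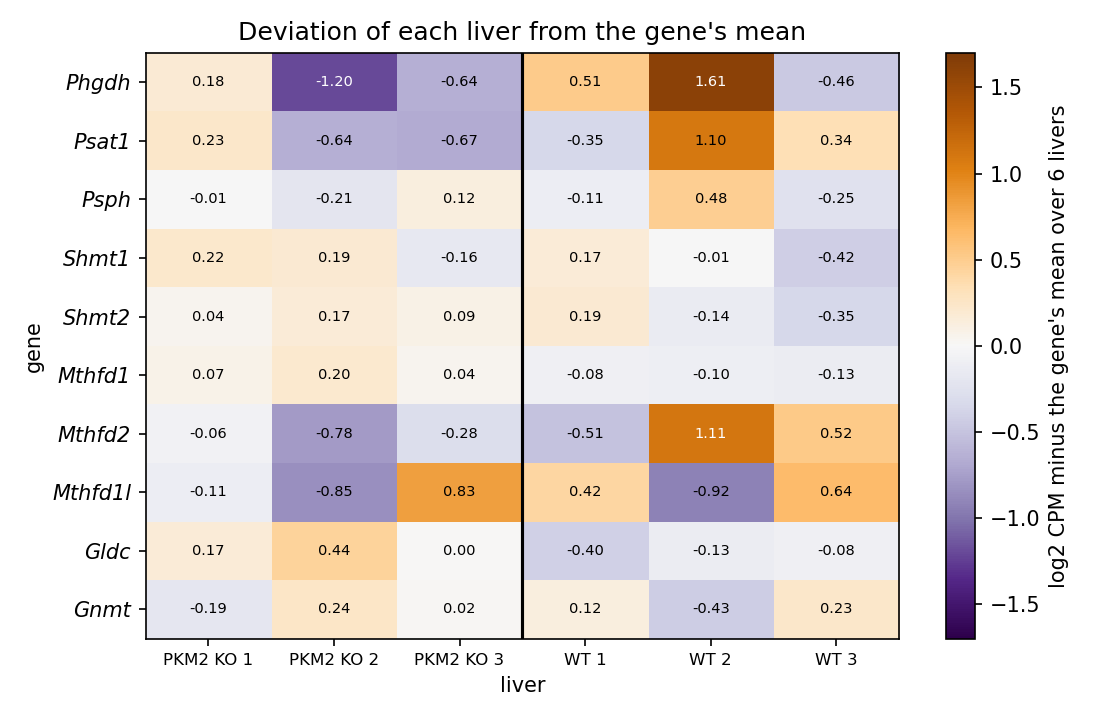
Deviation of each liver (columns, PKM2 KO on the left) from the mean of each gene (rows) over 6 livers, in log2 CPM with a prior count of 2. WT 2 is the highest liver for Phgdh (1.61), Psat1 (1.1), Psph (0.48) and Mthfd2 (1.11) and the lowest for Mthfd1l (-0.92) and Gnmt (-0.43).

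The serine hydroxymethyltransferases were abundant, and neither passed the test. Shmt1, the cytosolic enzyme, stood at 198, 194 and 153 CPM in PKM2 KO livers, against 191, 169 and 127 CPM in WT livers. The groups overlapped, and WT 3 was the lowest liver. The fold change was 0.16 on the log2 scale (SE 0.184, 95% interval -0.27 to 0.59, adjusted p = 0.906 in edgeR). Shmt2, the mitochondrial enzyme, stood at 236, 258 and 244 CPM in PKM2 KO livers, against 261, 208 and 180 CPM in WT livers. The PKM2 KO values lay close together (SD 11.1 CPM, against 41.1 CPM in WT), and WT 1 was above all of them. Shmt2 had a log2 fold change of 0.18 (95% interval -0.19 to 0.55, adjusted p = 0.852 in edgeR). Both values depended on WT 3, the lowest liver for Shmt2 too. Without WT replicate 3 the log2 fold change was 0.02 for Shmt1 and 0.07 for Shmt2, and with WT 3 the sole WT liver it was 0.52 for Shmt1 and 0.45 for Shmt2. The ratio of the pair overlapped between the genotypes. Shmt2 over Shmt1, per kb, was 1.49, 1.66 and 1.99 in PKM2 KO livers and 1.71, 1.53 and 1.77 in WT livers (exact permutation p = 1, two-sided, adjusted p = 1 over 4 ratios, where 0.1 is the smallest p that 3 against 3 allows).

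Of the folate enzymes, Mthfd1 was abundant and its mitochondrial counterparts were scarce. Mthfd1, the cytosolic enzyme that joins formate to folate and interconverts the folate forms, stood at 255, 279 and 250 CPM in PKM2 KO livers, against 230, 227 and 223 CPM in WT livers. All 3 PKM2 KO livers lay above all 3 WT livers. The difference was small, with means of 261.2 ± 16 CPM in PKM2 KO, against 226.4 ± 3.58 CPM in WT (SD, n = 3 each) and a log2 fold change of 0.21 (SE 0.113, 95% interval -0.06 to 0.47, adjusted p = 0.757 in edgeR). It was the least variable member, with its highest liver 1.26-fold above its lowest.

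Mthfd2, the mitochondrial dehydrogenase and cyclohydrolase known for its expression in embryos and tumours, stood at 0.758, 0.435 and 0.638 CPM in PKM2 KO livers, against 0.536, 1.77 and 1.16 CPM in WT livers. WT 2 and WT 3 exceeded every PKM2 KO liver, and WT 1 lay within their range. This gave a log2 fold change of -0.93 (SE 0.46, 95% interval -2.01 to 0.15, adjusted p = 0.732 in edgeR), on 14 to 22 expected counts in PKM2 KO and 15 to 57 in WT. It ran from -1.25 without WT replicate 1 to -0.50 without WT replicate 2, and was -0.93 with WT 3 the sole WT liver. Its relative Mthfd2l, which carries out the same reactions in mitochondria, was also scarce, at 0.62, 0.653 and 0.669 CPM in PKM2 KO livers, against 0.786, 0.591 and 0.541 CPM in WT livers.

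Mthfd1l, the mitochondrial enzyme that releases formate, stood at 2.17, 1.27 and 4.22 CPM in PKM2 KO livers, against 3.18, 1.21 and 3.71 CPM in WT livers. The lowest values were in PKM2 KO 2 and WT 2 and the highest in PKM2 KO 3 and WT 3, so the spread lay within the genotypes. The 95% Poisson intervals of 29.4 to 55.6 counts in PKM2 KO 2 and 117 to 164 counts in PKM2 KO 3 did not overlap, although the libraries of these livers held 31880716 and 33756104 counts. The log2 fold change was -0.08 with a wide 95% interval of -1.30 to 1.15 (adjusted p = 0.982 in edgeR), and it ran from -0.65 without PKM2 KO replicate 3 to 0.25 without PKM2 KO replicate 2. Mthfd1 over Mthfd1l, per kb, was 133, 249 and 67.2 in PKM2 KO livers and 82.2, 213 and 68.3 in WT livers. Mthfd1 over Mthfd2 was 216, 413 and 252 in PKM2 KO livers and 276, 82.3 and 123 in WT livers. Neither ratio separated the genotypes (exact permutation p = 0.8 and 0.3, two-sided, adjusted p = 1 and 0.6).

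The glycine enzymes were the members with the highest and the fifth highest level. Gldc, the decarboxylase of the glycine cleavage system, stood at 163, 196 and 144 CPM in PKM2 KO livers, against 110, 132 and 137 CPM in WT livers. All 3 PKM2 KO livers lay above all 3 WT livers, and PKM2 KO 3 and WT 3 were the closest values across the genotypes. The means were 167.6 ± 26 CPM in PKM2 KO, against 126.5 ± 14.5 CPM in WT (SD, n = 3 each), a ratio of 1.33. That is a log2 fold change of 0.41 (SE 0.154, 95% interval 0.05 to 0.77, unadjusted p = 0.0321 and adjusted p = 0.658 in edgeR). The difference did not pass the threshold. Over 16 alternatives its log2 fold change ran from 0.28 to 0.50, always positive, and its adjusted p from 0.357 to 1. Leaving out livers could hardly change the sign for Gldc, as its genotypes did not overlap, so the constant sign adds little to that. Gldc and Mthfd1 were the 2 of 10 members higher in PKM2 KO with no overlap, against 5.8% of all tested genes, and 0 members were lower with no overlap, against 6.27%.

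Gnmt, which methylates glycine to sarcosine, stood at 2080, 2800 and 2400 CPM in PKM2 KO livers, against 2570, 1760 and 2780 CPM in WT livers. WT 2 was the lowest liver and PKM2 KO 2 the highest, with the others interspersed. Its log2 fold change was 0.03 (SE 0.229, 95% interval -0.50 to 0.57, adjusted p = 0.983 in edgeR), and the sign was the same in 13 of 16 alternatives. The interval does not extend to a doubling or halving of Gnmt. Gldc over Gnmt, per kb, was 0.0215, 0.0192 and 0.0165 in PKM2 KO livers and 0.0118, 0.0207 and 0.0135 in WT livers (exact permutation p = 0.3, two-sided, adjusted p = 0.6).

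**Figure D3:**
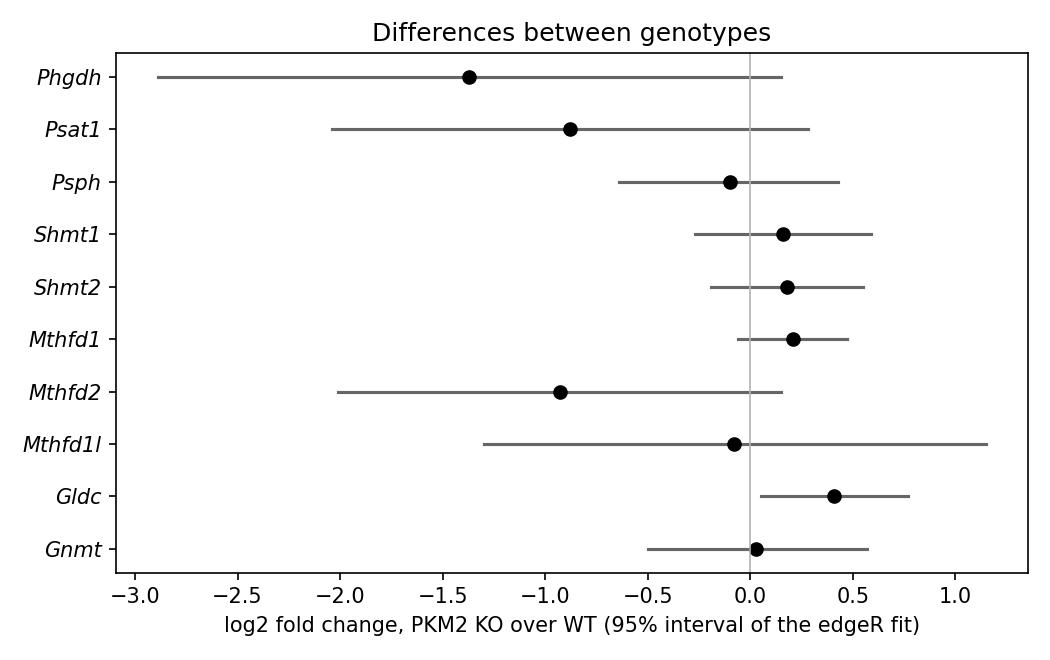
Log2 fold change of each member, PKM2 KO over WT (points), with its 95% interval from the edgeR fit (lines), without adjustment for multiple tests. The intervals of the abundant members span at most -0.50 to 0.77, those of Phgdh, Psat1, Mthfd2 and Mthfd1l reach below -1, and that of Gldc alone does not cross 0.

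The spread between livers was smaller in the abundant members and in Psph. The 5 abundant members varied 1.26- to 1.78-fold between their lowest and highest liver, Psph 1.67-fold, and the other 4 scarce members from 3.48-fold in Mthfd1l to 9.01-fold in Phgdh. Within genotypes, the coefficient of variation of Shmt2 was 4.52% in PKM2 KO, against 19% in WT, and that of Mthfd1 was 6.13% in PKM2 KO, against 1.58% in WT. For Phgdh it was 57.2% in PKM2 KO and 73.5% in WT. WT 2 was the highest liver for 4 members and the lowest for 2, and WT 3 was the lowest for 4 members and the highest for none.

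The tested genes whose pattern over the 6 livers lay nearest to 3 members were taken by the root mean square difference of centred log2 CPM. A likeness to the member, such as a shared extreme in WT 2, follows from this choice and is not a separate result. For Phgdh they were St14 (0.279), Itgb4 (0.311) and Mogat2 (0.34), all highest in WT 2. For Psat1 they were Plek (0.139), Samsn1 (0.144) and Tifab (0.164), also highest in WT 2. For Gnmt they were Zfp689 (0.0585), Dcp1b (0.0598) and Rbms1 (0.0634), all lowest in WT 2. St14 had 0.586, 0.28 and 0.517 CPM in PKM2 KO livers and 0.965, 1.93 and 0.676 CPM in WT livers. Plek had 3.03, 1.99 and 2.25 CPM in PKM2 KO livers and 2.43, 6.91 and 3.95 CPM in WT livers.

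The rest of the pathway was described by 8 further lists with 87 genes, of which 84 were tested. None of the 84 passed the threshold in either direction (edgeR). Of the 84, 11 had an unadjusted p under 0.05 in edgeR, 3 higher and 8 lower. Of all 13058 tested genes 7.24% had one, 375 higher and 571 lower. Pkm, the targeted gene, is among the 84 and among the 8 lower genes, so the counts of the 84 are not of other genes alone. The median log2 fold change was 0.0111 beside -0.0119 over all tested genes. Of the 84, 8 were higher and 8 lower in PKM2 KO with no overlap, against 5.8% and 6.27% of all tested genes. The genes named below include those with the smallest p of each list, a choice that favours genes without overlap. The other folate enzymes and carriers had 8 of 14 tested genes positive. Aldh1l1, which oxidises formyl-folate, averaged 1679 ± 80.5 CPM in PKM2 KO livers, against 1511 ± 64.5 CPM in WT livers (SD, n = 3 each), with no overlap and an adjusted p of 0.88 in edgeR. Ftcd, which passes the carbon unit of histidine to folate, averaged 440.1 ± 13.3 CPM in PKM2 KO livers, against 363.7 ± 59.6 CPM in WT livers, also with no overlap (adjusted p = 0.763 in edgeR). Aldh1l2, the mitochondrial relative of Aldh1l1, was scarce, at 0.3066 ± 0.212 CPM in PKM2 KO, against 0.4897 ± 0.164 CPM in WT (adjusted p = 0.817 in edgeR). The log2 fold change was -0.70, and -1.40 without PKM2 KO replicate 1.

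The partners of Gldc in glycine cleavage and the other glycine enzymes had 7 of 9 tested genes positive, with a median of 0.0828. Amt, the aminomethyltransferase of the same complex, averaged 30.43 ± 4.17 CPM in PKM2 KO livers, against 27.06 ± 2.08 CPM in WT livers, with a log2 fold change of 0.17 and overlap between genotypes. Alas1, which uses glycine for haem synthesis, stood at 282, 306 and 712 CPM in PKM2 KO livers, against 509, 270 and 199 CPM in WT livers, a log2 fold change of 0.41 that was -0.15 without PKM2 KO replicate 3. Agxt, which makes glycine from glyoxylate in peroxisomes, had a log2 fold change of 0.09. The choline, betaine and sarcosine enzymes had 5 of 8 positive. Pipox, the peroxisomal sarcosine oxidase, stood at 275, 321 and 287 CPM in PKM2 KO livers, against 263, 232 and 190 CPM in WT livers, with no overlap (log2 fold change 0.37, adjusted p = 0.682 in edgeR). Sardh, the mitochondrial dehydrogenase of sarcosine, the product of GNMT, was at -0.06, Bhmt, which remethylates homocysteine with betaine, at -0.22, and Pemt, which methylates phosphatidylethanolamine, at 0.22.

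The methionine cycle and transsulfuration enzymes had 5 of 10 positive. Mat1a, which makes S-adenosylmethionine in hepatocytes, and Ahcy, which splits S-adenosylhomocysteine, had log2 fold changes of -0.17 and 0.02. Mat2a, the S-adenosylmethionine synthetase of most other tissues, stood at 57.2, 56 and 48.2 CPM in PKM2 KO livers, against 66.4, 83.6 and 68.9 CPM in WT livers, with no overlap (log2 fold change -0.44, SE 0.131, adjusted p = 0.566 in edgeR). Nnmt, which methylates nicotinamide and like GNMT uses S-adenosylmethionine, stood at 59.9, 91.8 and 65.2 CPM in PKM2 KO livers, against 95.7, 272 and 271 CPM in WT livers. Every PKM2 KO liver lay below every WT liver, though PKM2 KO 2 and WT 1 were close. Its log2 fold change of -1.56 (SE 0.392) did not pass (adjusted p = 0.566 in edgeR), and it passed with DESeq2 (adjusted p = 0.00192) and in edgeR without WT replicate 1 (-1.90, adjusted p = 0.0296). The log2 fold change was -1.34 without WT replicate 2 and likewise without WT replicate 3 (adjusted p = 0.82 and 0.587 in edgeR).

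Genes of serine breakdown, use and transport had 5 of 12 positive. Sds, the serine dehydratase of gluconeogenic liver, stood at 207, 189 and 153 CPM in PKM2 KO livers, against 190, 179 and 325 CPM in WT livers. Its relative Sdsl stood at 6.85, 7.27 and 7.9 CPM in PKM2 KO livers, against 8.58, 11.2 and 19.3 CPM in WT livers, with no overlap and WT 3 far above the others (log2 fold change -0.83, adjusted p = 0.631 in edgeR). Without WT replicate 3 it was -0.43 (adjusted p = 0.645 in edgeR). Slc1a4, a carrier of serine and other small neutral amino acids, stood at 5.61, 5.87 and 4.38 CPM in PKM2 KO livers, against 3.79, 2.65 and 3.65 CPM in WT livers, with no overlap (log2 fold change 0.65, adjusted p = 0.587 in edgeR). Sfxn1, the mitochondrial serine carrier, was at -0.11 and overlapped. In purine synthesis, which consumes formyl-folate, 3 of 8 genes were positive. Ppat, the enzyme of the committed step, was at 0.26 and Pfas, a later step, at -0.30, each with no overlap, and Paics and Gart were at 0.03 and -0.08 (adjusted p 0.676 to 0.973 in edgeR).

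ATF4, the transcription factor known to drive serine synthesis genes when amino acids are short, and its targets had 8 of 17 tested genes positive, with a median of -0.0147. At an unadjusted p under 0.05 in edgeR there were 4 of the 17, all lower and none higher. Of all 13058 tested genes, 375 were higher and 571 lower at that p, 7.24% in either direction. The 4 genes were Atf5, Asns, Nupr1 and Eif4ebp1, with log2 fold changes of -0.42, -2.24, -2.95 and -0.38. Asns stood at 0.999, 3.61 and 6.32 CPM in PKM2 KO livers, against 3.57, 16 and 32 CPM in WT livers. Eif4ebp1 stood at 26.4, 27.6 and 32.8 CPM in PKM2 KO livers, against 40.3, 40.5 and 32.4 CPM in WT livers. Both genes overlapped between genotypes (adjusted p = 0.653 for Asns and 0.64 for Eif4ebp1 in edgeR), and Asns varied widely within each genotype. Atf4 itself stood at 78.1, 70.4 and 77 CPM in PKM2 KO livers, against 57.3, 67 and 66.5 CPM in WT livers, with every PKM2 KO liver above every WT liver (log2 fold change 0.24, adjusted p = 0.718 in edgeR). Atf5 stood at 212, 195 and 203 CPM in PKM2 KO livers, against 229, 271 and 313 CPM in WT livers, with no overlap (log2 fold change -0.42, adjusted p = 0.637 in edgeR). Nupr1, a stress-induced nuclear protein, stood at 0.551, 0.528 and 0.425 CPM in PKM2 KO livers, against 2.93, 8.03 and 0.785 CPM in WT livers (log2 fold change -2.95, adjusted p = 0.566 in edgeR and 0.0022 with DESeq2). With each liver left out it ran from -3.44 without WT replicate 3 to -1.86 without WT replicate 2, and with WT 3 the sole WT liver it was -0.64. Its WT levels followed the acinar markers, highest in WT 2, then WT 1, then WT 3, and the part of those cells was not tested. Aars, the alanyl-tRNA synthetase, had a log2 fold change of -0.01. Of the 6 glycolytic genes around 3-phosphoglycerate, 3 were positive. Gapdh and Eno1, on either side of that branch point, were at -0.07 and 0.11, and Pklr, the pyruvate kinase of hepatocytes, stood at 643, 482 and 396 CPM in PKM2 KO livers, against 633, 175 and 207 CPM in WT livers (log2 fold change 0.58, adjusted p = 0.847 in edgeR). WT 1 was the WT liver apart, and leaving it out gave 1.42 (adjusted p = 0.0715 in edgeR), where leaving out WT 2 gave 0.27.

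**Figure D4:**
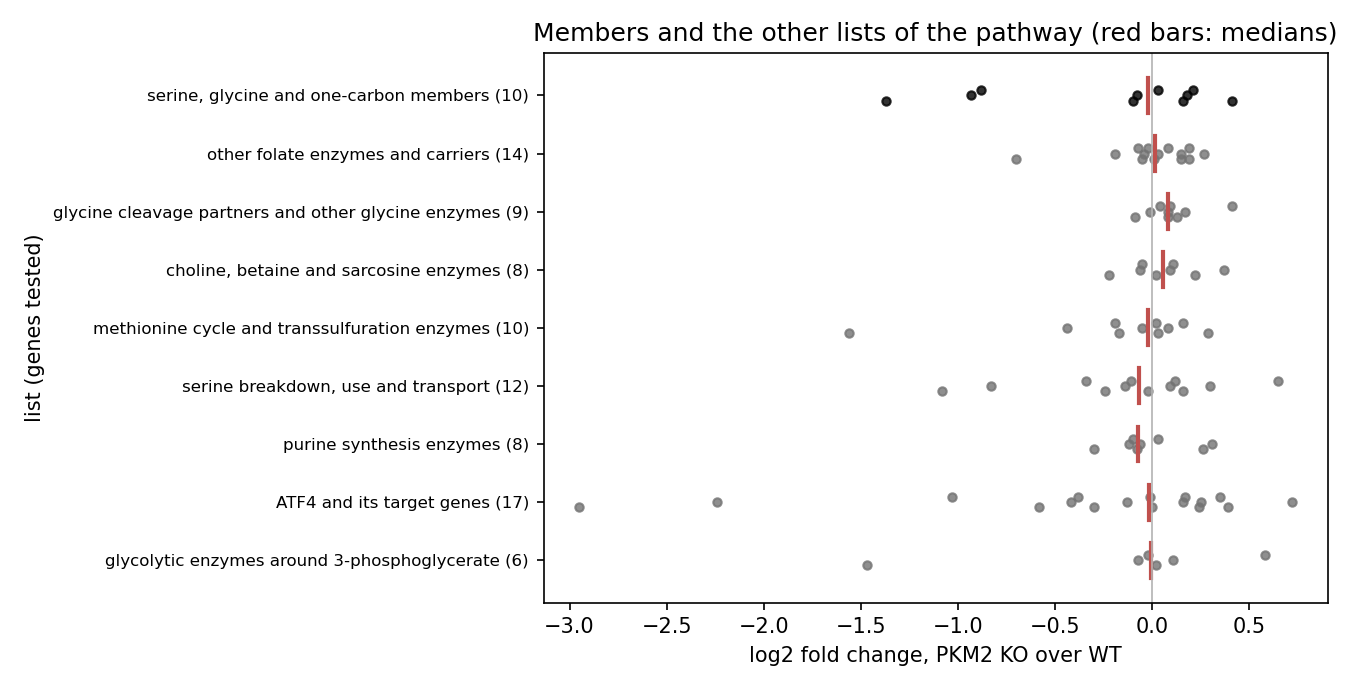
Log2 fold change, PKM2 KO over WT, of each tested gene (points) in the 10 members (black) and the 8 other lists of the pathway (grey), with the list's median as a red bar. The medians lie between -0.0712 for purine synthesis and 0.0828 for the glycine enzymes, and the points farthest left are Nupr1 (-2.95) and Asns (-2.24).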

How the data were processed

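Per the labels' protocols, TruSeq libraries were made from polyadenylated liver RNA. The authors deposited expected counts, RSEM's estimates of reads per gene, for 6 livers. Bowtie 1.0.1, RSEM 1.2.12 and the build mm9 are named in the submitters' processing notes. The annotation and the strandedness of counting are not given in the sources used here. Totals ran from 27727048 to 36125711 counts per library.

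Expected counts were rounded and analysed in R 4.3.3. Genes kept by filterByExpr were scaled by TMM and compared with the quasi-likelihood F test of edgeR 4.0.16, with genotype as the only term and Benjamini-Hochberg adjustment over all 13058 genes (threshold 0.05). The SE is the absolute log2 fold change over the square root of F. The 95% interval is the t interval with the fit's degrees of freedom. Ratios between members were compared by exact permutation. RSEM divides reads between similar sequences, such as paralogs or pseudogenes, which can affect single values.

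Alternatives were other scalings and filters, DESeq2 1.42.0, limma voom (limma 3.58.1), unrounded values, a replicate block, each liver left out, and WT 3 as the only WT liver. The fit was tested on simulated counts with planted changes larger than that of any member and without the acinar excess of WT 1 and WT 2. That test does not show whether smaller changes would be found. No library pair agreed within sampling noise. From each further list the 2 most abundant genes, the 2 with the smallest p and any past the threshold are named, with Pkm; Mthfd2l, Asns, Atf4 and Eif4ebp1 were chosen after their values were seen. The members, lists and this rule were chosen with earlier results of these data known. Promoters come from RefSeq (GRCm38.p6; all 10 members matched), and lengths from GENCODE M21. Plots were drawn with matplotlib 3.10.9.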

Additional observations from a re-analysis of the deposited data

How the results depend on the processing

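No member passed the threshold under any of the 16 alternatives. Of the members, Psat1, Shmt1, Shmt2, Mthfd1, Mthfd2 and Gldc had the sign of the reported fold change in every alternative that tested them. For Mthfd1 and Gldc, whose genotypes did not overlap, leaving out livers could hardly change the sign. Phgdh, Psph, Mthfd1l and Gnmt changed sign in at least 1, and with WT 3 the sole WT liver the log2 fold change was 0.02 for Phgdh and 0.23 for Psph. A filter that asked for 1 CPM in 3 livers did not test Phgdh, Psat1 and Mthfd2. Over all genes 3 were called, against 5 with no filter on low counts, 97 with DESeq2, 5 with limma voom, 163 with WT 3 the sole WT liver, and 3 to 51 with each liver left out, where leaving out WT 1 or WT 3 each gave 51. Of the 84 tested genes in the other lists 0 were called, against 3 with DESeq2 (Nnmt, Nupr1 and Pkm), 2 with WT 3 the sole WT liver (Nnmt and Sdsl) and 0 to 2 with each liver left out. The cause was not tested. A fit with WT 3 alone assumes that WT livers vary as PKM2 KO livers do, and Sdsl, highest in WT 3, varied by 43% (CV) in WT livers, so its pass there rests on 1 outlying liver.

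The replicate block moved the calls to 7 over all genes and to 1 in the other lists (Asns), with 0 members called. The labels do not say that the numbers pair animals, so they were not taken as pairs. Same-numbered livers correlated in their deviations from the group means at -0.051, 0.027 and -0.092, and differently numbered livers at -0.037 to 0.082. Scaling by RLE, upper quartile or library totals moved the median of all genes by less than 0.1 on the log2 scale. Phgdh, Psat1 and Mthfd2 rest on 6 to 57 expected counts per liver. The spread between livers exceeded counting error in places, since the 95% Poisson intervals of Phgdh in WT 2 (40.6 to 70.5 counts) and WT 3 (6.92 to 22.2 counts) did not overlap.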
